A study of Bos taurus with 25 samples.

Results

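The genes followed here were ID1 and a set of genes known to respond to bone morphogenetic protein (BMP) signals, measured in the liver and the mammary gland of lactating dairy cows that received vitamin B9, vitamin B12, both or neither. The list held 8 genes, namely ID1, ID2, ID3, ID4, SMAD6, SMAD7, HAMP and BMP6, and it was selected on a measured value, because the ID1 signal was higher in the liver of cows given vitamin B12 than in that of the control cows. All probes that are not controls and whose array annotation led to one of these symbols were taken, which gave 7 of the 43653 different probes, for 5 of the 8 genes and of the 11068 genes that the array names. ID1 and ID2 had 2 probes each, and ID3, SMAD7 and HAMP had 1 probe each. No probe led to ID4, SMAD6 or BMP6, so these 3 genes were not analysed here.

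BMPs are secreted proteins of the transforming growth factor β family. They bind receptor kinases on the cell surface, which phosphorylate SMAD1, SMAD5 and SMAD9, and these enter the nucleus with SMAD4 to switch on target genes. The ID genes are among the most direct targets, and ID proteins pair with basic helix-loop-helix transcription factors, the E proteins, and keep them from binding DNA. SMAD6 and SMAD7 are targets that act as inhibitors within the pathway. In the liver, BMP6 is released by endothelial cells and signals to hepatocytes, which then make hepcidin, the product of HAMP, the hormone that limits the release of iron into plasma. Vitamin B9 (folic acid) and vitamin B12 (cyanocobalamin) are both needed for the transfer of methyl groups.

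The cows were multiparous Holstein cows in lactation, and each was injected once a week with 5 mL into the muscle. Control cows received saline, cows of the B9 treatment received 320 mg of folic acid, cows of the B12 treatment 10 mg of cyanocobalamin, and cows of the B9 + B12 treatment both. Biopsies were taken 64 ± 3 days after calving, and all groups shared the diet, the injection schedule and the stage of lactation. The 25 one-colour arrays covered the liver of 12 cows (3 control, 3 B9, 4 B12 and 2 B9 + B12) and the mammary gland of 13 cows (3, 3, 4 and 3), with both tissues from 12 cows and 1 cow per array. A biopsy holds several cell types, so that fewer cells of a type and less RNA per cell cannot be told apart in any value below.

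The values are log2 intensities after correction for local background and normalization of the arrays of a tissue to the same distribution, and a difference of 1 is a change of 2-fold. A probe was called where the adjusted p of limma, a linear model with a spread moderated across all probes, was at most 0.05 and the change at least 2-fold. The number of arrays limits the precision. All 7 hepatocyte markers found were called higher in the liver and all 7 markers of milk secretion lower, with median log2 differences of 10.64 and −9.69, so that both tissues carried their labels. A later scan day held 3 liver arrays, 1 each of control (cow 43), B12 (cow 37) and B9 + B12 (cow 32). Their signal over background was 2.30 to 3.58, against 5.33 to 10.5 on the other liver arrays and 2.92 to 5.06 on the mammary arrays, and some of the results that hold them are also given without them. Without them the B9 + B12 treatment holds 1 liver, cow 38, and the control treatment 2 livers. Each B9 + B12 liver value given without the later scan day therefore rests on a single cow.

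Expression of ID1 in the liver was about 2-fold higher in each of the 3 vitamin treatments than in the control cows. By the brighter probe of ID1, the control livers read 10.69, 10.77 and 11.27, the B9 livers 11.13, 12.00 and 12.47, the B12 livers 11.28, 11.89, 12.10 and 12.39, and the B9 + B12 livers 11.58 and 12.13 on the log2 scale. The B12 and the B9 + B12 livers all read above every control liver, and in the B9 treatment 2 of 3 livers did, with cow 41 below the highest control. The distance between the lowest B12 liver and the highest control liver was small, and that control, cow 43, was an array of the later scan day. Mean ID1 was 10.91 ± 0.31 (SD, n = 3) in the control livers and 11.91 ± 0.47 (SD, n = 4) in the B12 livers. In the B9 livers it was 11.87 ± 0.68 (SD, n = 3), and in the livers given both vitamins 11.86 ± 0.39 (SD, n = 2). The difference between B12 and control was 1.00 on the log2 scale (standard error 0.34), or 2.00-fold. This contrast was the reason for the choice of ID1, so it is a description and carries no test. The B9 and B9 + B12 livers were read against the same 3 control arrays, and their differences of 0.96 (standard error 0.37) and 0.95 (standard error 0.41) carry no test for the same reason. B12 livers above all controls were found for 2.43% of all probes, B9 livers for 4.3% and B9 + B12 livers for 12%, and nothing is read from these shares for ID1.

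By the dimmer probe of ID1, no treated liver overlapped the control livers. It read 9.16, 9.17 and 9.23 in the control livers, 9.82, 10.25 and 10.79 with B9, 9.89, 10.01, 10.14 and 10.87 with B12, and 9.48 and 10.26 with B9 + B12. All 9 treated livers lay above all 3 control livers by this probe, against 8 of 9 by the brighter probe. The log2 differences from control were 1.10 for the B9, 1.04 for the B12 and 0.68 for the B9 + B12 livers. After removal of the group means, the 2 probes of ID1 had a Pearson correlation of 0.839 over the 12 liver arrays and of 0.920 over the 13 mammary arrays, which share the RNA and the labelling of each array.

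**Figure D1:**
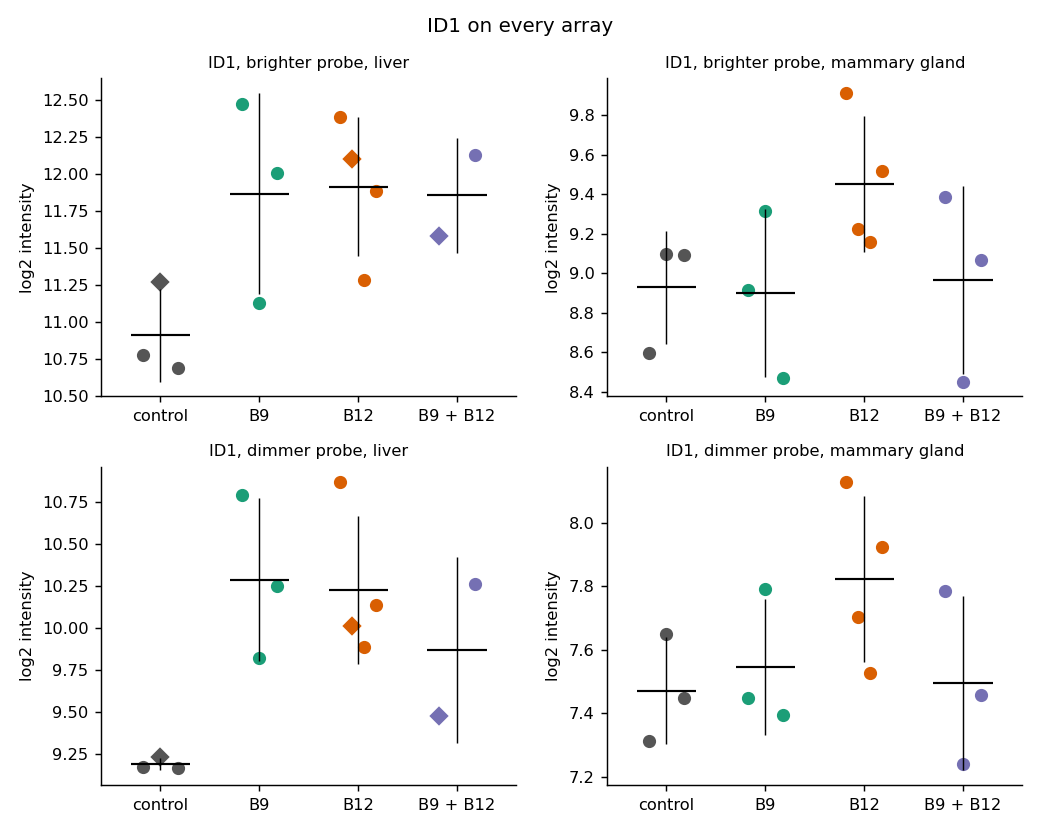
Log2 intensity of both ID1 probes on each array (vertical axis, scaled to each panel), by treatment (horizontal axis), with the group mean as a horizontal line and 1 SD as a vertical line. Diamonds are the 3 liver arrays of the later scan day. In the liver, 8 of 9 treated arrays lay above every control array by the brighter probe and 9 of 9 by the dimmer. These liver counts are a description, since ID1 was chosen with the same control arrays. In the mammary gland the 4 B12 arrays lay above the controls by the brighter probe and 3 of them by the dimmer.

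Without the 3 arrays of the later scan day, the 7 treated livers that remained read above both control livers by either probe of ID1, again as a description. The difference from control was then 1.12 for B12, 1.14 for B9 and 1.40 for B9 + B12, the last from 1 liver, cow 38. With the scan day as a term of the model the B12 difference was 1.02. Over the settings of the processing that kept these arrays without a scan-day term it lay between 0.860 and 1.02, and leaving out 1 array at a time it lay between 0.846 and 1.21. Among the 11068 genes with a current symbol, each by its brightest probe, ID1 stood at rank 27 of the rises with B12 in the liver, and 0.172% of all probes were at least 2-fold higher in that contrast, which is given without a reading because the contrast chose the gene.

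The comparison of the B9 + B12 livers with the B9 livers asks what vitamin B12 added to vitamin B9, and the choice of ID1 did not use either group. No difference in ID1 was called there. The 2 B9 + B12 livers (11.58 and 12.13) fell within the range of the 3 B9 livers (11.13 to 12.47), and the log2 difference was −0.01 with a 95% confidence interval from −0.93 to 0.90 (limma, adjusted p 0.999). It was 0.26 without cow 32 of the later scan day, and ranged from −0.38 to 0.29 with 1 array left out. The exact two-sided permutation test over these 5 arrays gave p = 1, with 0.1 as the smallest p that 2 against 3 arrays allow. By the dimmer probe the difference was −0.42 (interval −1.19 to 0.35, limma, adjusted p 0.998). The spread between these cows was wide, and both intervals span changes in either direction. No member gene was called in this comparison, where 0% of all probes were called and 4.84% had an unadjusted p below 0.05 by limma.

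ID1 was lower in the mammary gland than in the liver, and its highest group mean was that of the B12 treatment. The control glands read 8.60, 9.09 and 9.10, the B9 glands 8.47, 8.91 and 9.32, the B12 glands 9.16, 9.22, 9.52 and 9.91, and the B9 + B12 glands 8.45, 9.07 and 9.39 by the brighter probe. All 4 B12 glands lay above all control glands, with a narrow gap, whereas the B9 and the B9 + B12 glands overlapped the control range on both sides. Groups that do not overlap, with B12 higher, were found for 2.27% of all probes in this comparison. Mean ID1 was 9.45 ± 0.34 (SD, n = 4) with B12 and 8.93 ± 0.29 (SD, n = 3) in the control glands, a log2 difference of 0.52 (standard error 0.27, 1.44-fold, 95% confidence interval −0.07 to 1.12). The difference did not pass the threshold (limma, adjusted p 0.9997, unadjusted p 0.0783), and the exact two-sided permutation test gave p = 0.0857, with 0.0286 as the smallest that 4 against 3 arrays allow. By the dimmer probe it was 0.35, with 3 of 4 B12 glands above the controls and an exact permutation p of 0.114. The differences of B9 and of B9 + B12 from control were −0.03 and 0.04, and that between B9 + B12 and B9 was 0.07, with intervals of −0.67 to 0.61, −0.60 to 0.67 and −0.57 to 0.70. None of the 5 genes was called in any treatment comparison of the mammary gland, where 0% of all probes were called by limma and between 1.95% and 2.55% had an unadjusted p below 0.05.

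HAMP, which encodes hepcidin, was well above background on all 12 liver arrays, and most livers given vitamins read above the controls. The control livers read 12.16, 12.88 and 13.31, the B9 livers 13.05, 13.59 and 13.60, the B12 livers 13.01, 13.56, 13.83 and 13.99, and the B9 + B12 livers 13.66 and 14.24. Of the 9 treated livers 7 lay above all controls (5 of 7 without the later scan day), and the exceptions were cow 39 of the B9 and cow 36 of the B12 treatment, both within the control range. The 2 B9 + B12 livers had the highest mean, 13.95 ± 0.41 (SD, n = 2), against 12.78 ± 0.58 (SD, n = 3) in the control livers. This was a log2 difference of 1.17 (standard error 0.37, 2.25-fold, 95% confidence interval 0.34 to 2.00), which did not pass the threshold after adjustment over all probes (limma, adjusted p 0.687, unadjusted p 0.0105). The exact two-sided permutation test gave p = 0.2, with 0.1 as the smallest possible. Leaving out control cow 42 brought the difference to 0.86, and without the arrays of the later scan day, which left 1 B9 + B12 liver, it was 1.504. HAMP was the only member with an unadjusted p below 0.05 by limma in any of the treatment comparisons that were tested. Both B9 + B12 livers lay above all controls, as they did for 12% of all probes in this comparison of 2 with 3 arrays, and no tested member was called, with 0% of all probes called and 5.72% at an unadjusted p below 0.05.

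With B9 alone, HAMP was 0.63 higher than in the control livers (standard error 0.33, limma, adjusted p 0.906, exact permutation p 0.2), and 0% of all probes were called in that comparison, with 3.54% at an unadjusted p below 0.05. The B9 value of HAMP depended on single arrays and on the slides. It was 0.32 without control cow 42, the lowest liver, and 1.07 with the slide as a term of the model. With B12 alone the difference was 0.82 (no test, since the contrast chose the list) and 0.51 without control cow 42. Between B9 + B12 and B9 it was 0.54 (interval −0.29 to 1.36, limma, adjusted p 0.998). Both B9 + B12 livers lay above all 3 B9 livers, as for 6.78% of all probes, and the exact permutation p of 0.1 is the smallest possible there. That difference was 0.82 without cow 32, the B9 + B12 array of the later scan day, and 0.25 without cow 38.

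After removal of the group means, the correlation of the 2 genes over the 12 liver arrays was −0.349, and cow 36 with the highest ID1 among the B12 livers had the lowest HAMP of that group. Mammary HAMP was close to background. It was called well above background by the image software on 5 of 13 arrays, and its group means lay between 6.00 and 6.07.

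ID2, which like ID1 blocks E proteins, was not called in any of the treatment comparisons that were tested. The control livers read 11.01, 11.16 and 11.38, the B9 livers 11.05, 11.26 and 11.63, the B12 livers 10.64, 11.12, 11.14 and 11.29, and the B9 + B12 livers 11.27 and 11.68. All treatments overlapped the controls. Relative to control, ID2 was 0.13 for B9 (limma, adjusted p 0.928), −0.14 for B12 (no test) and 0.29 for B9 + B12 (limma, adjusted p 0.699) on the log2 scale. The B12 value of ID2 was −0.0035 without cow 40. With 1 array left out, the B9 value ranged from −0.03 to 0.26 and the B9 + B12 value from 0.08 to 0.49. In the gland the mean of ID2 was 8.58 in the control glands and 8.75 to 8.76 in the 3 vitamin treatments, with B12 glands spread from 8.12 to 9.21. The mean of ID2 with both vitamins rested on cow 31, at 9.44 against 8.39 and 8.43, and the difference from control turned from 0.17 to −0.17 without that cow. With B12 the difference of 0.17 was 0.02 without cow 36 and 0.39 without cow 40. The dimmer probe of ID2 read 8.10, 8.27 and 8.64 in the B9 glands, above the control glands at 7.95, 7.99 and 8.08, as for 3.84% of all probes. That difference was 0.33 (limma, adjusted p 1, exact permutation p 0.1, the smallest possible), and the brighter probe of ID2 overlapped in the same glands.

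ID3 and SMAD7 were dim on these arrays. ID3 was well above background on 8 of 12 liver arrays and 8 of 13 mammary arrays, with group means of 6.37 to 6.85 in the liver and 6.13 to 6.23 in the mammary gland. SMAD7 was well above background on 3 of 12 liver and 1 of 13 mammary arrays. None of the liver arrays with B9 + B12, and none of the mammary arrays with any vitamin treatment, measured SMAD7 above background, so no fold is given. Neither gene was called in a treatment comparison, and every treatment group of ID3 overlapped the control range in both tissues.

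**Figure D2:**
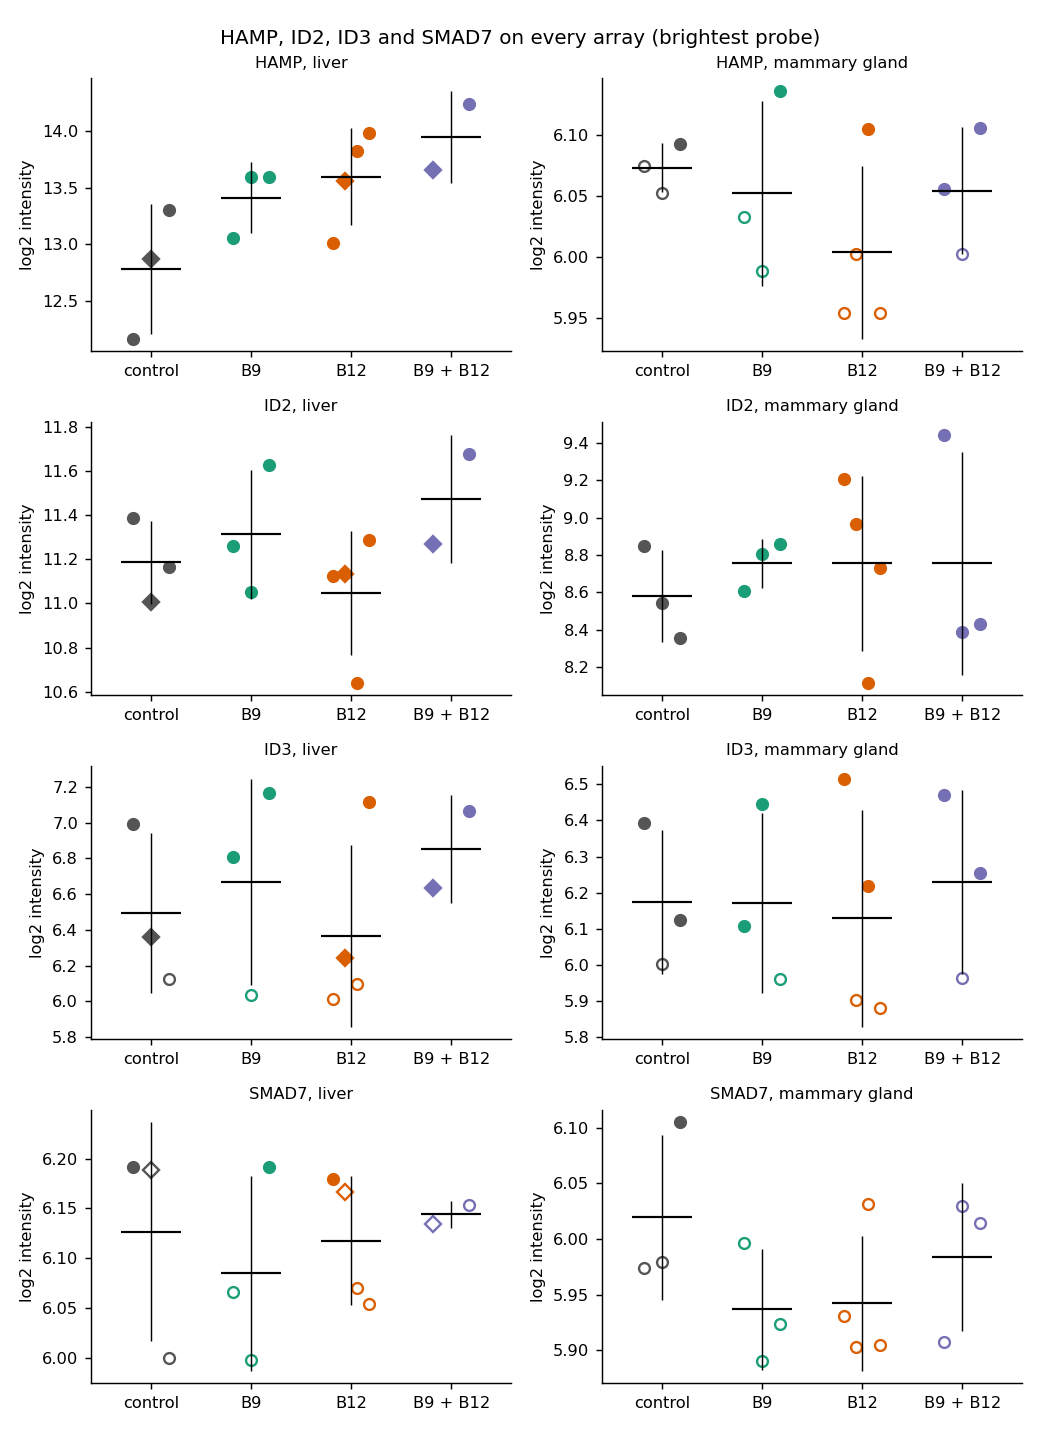
Log2 intensity of HAMP, ID2, ID3 and SMAD7 (brightest probe) on each array (vertical axis, scaled to each panel), by treatment (horizontal axis), with group means and 1 SD as lines. Filled points are well above background and open points are not, and diamonds are the liver arrays of the later scan day. HAMP in the liver lay above all controls on 7 of 9 treated arrays, a count without a share over all probes beside it. Every group of SMAD7 and of mammary HAMP holds open points.

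**Figure D3:**
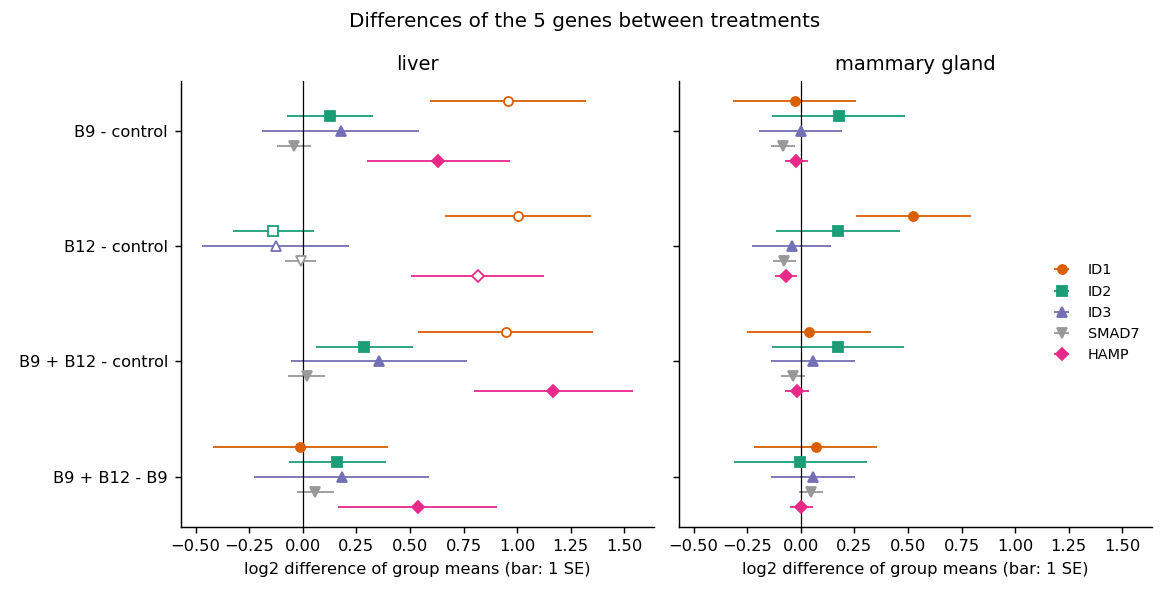
Log2 difference of the group means (horizontal axis) for the 5 genes in each comparison of treatments (vertical axis), with 1 standard error as the bar. Open symbols carry no test because the contrast, or its control arrays, chose ID1. ID1 and HAMP lay to the right of 0 in all 3 liver comparisons with control, and in the mammary gland only ID1 with B12 lay beyond 1 standard error to the right.

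Across the 5 genes, the median log2 difference from control in the liver was 0.18 for B9, −0.01 for B12 and 0.36 for B9 + B12, and the mammary medians were −0.02, −0.04 and 0.04. The median of all 43653 probes was between 0.00 and 0.02 in these 6 comparisons. Each such median is the value of 1 gene, ID3 in the liver for B9 and B9 + B12 and SMAD7 for B12, and both were dim.

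ID1, ID2 and HAMP differed between the tissues. On a scale common to both tissues, the lowest, median and highest ID1 values were 9.97, 10.94 and 11.62 over 12 livers, and 9.04, 9.74 and 10.62 over 13 glands. The ranges overlapped, with 7 of 12 liver arrays above all mammary arrays. The liver was 1.15 higher (standard error 0.17, 2.22-fold, limma, adjusted p 6.02e-06). The dimmer probe of ID1 gave 1.18. ID2 was 1.17 higher in the liver (2.25-fold, limma, adjusted p 4.71e-07), with 11 of 12 liver arrays above all mammary arrays. HAMP was 6.36 higher (limma, adjusted p 9.88e-21), with all 12 liver arrays between 11.35 and 13.22 (median 12.62) and all 13 mammary arrays between 6.01 and 6.26 (median 6.14). Livers above all glands were found for 12.6% of all probes. As HAMP was well above background on 5 of 13 mammary arrays, the gland values lie near background and no fold is given, and the log2 difference was 9.50 with the processed signal of the image software. ID3 (0.11, limma, adjusted p 0.526) and SMAD7 were not called, and SMAD7 was too dim in both tissues for a difference to be read.

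Of the 5 genes, 3 were called higher in the liver and none lower, where 18.7% of all probes were called, 8.8% higher and 9.89% lower. The size of these differences moved with the scaling between tissues. When each tissue was normalized on its own, the median of all probes moved from −0.03 to 0.38, and ID1, ID2 and HAMP were 2.57, 2.54 and 7.39 higher in the liver. With scaling by the 75th percentile that median was −0.80, and the 3 genes were 1.38, 1.35 and 6.21 higher, so that their direction was the same throughout. With the slide as a fixed term, ID2 was 0.97 higher and fell short of 2-fold. The additional change with B12 on top of B9 was also compared between tissues in 1 model. It was −0.09 for ID1 in liver minus mammary gland (interval −1.15 to 0.98) and 0.49 for HAMP (interval −0.21 to 1.18), with 0.22 for HAMP without liver cow 38 and 0.75 without liver cow 32. No member and 0% of all probes were called.

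The other genes of the pathway were read as lists by role, with the same test. No gene of these lists was called in a treatment comparison, and the contrast of B12 with control in the liver is again given without a test. Among the ligands, 6 of 10 were found, namely BMP2, BMP4, BMP10, GDF2, INHBA and INHBB. INHBA encodes a subunit of activin, a ligand of the same family. Its control livers ranged from 8.02 to 9.36, the B9 livers from 8.50 to 10.36, the B12 livers from 8.86 to 11.38 and the B9 + B12 livers from 9.26 to 10.24. The differences from control were 0.36, 1.54 and 0.95 (0.64, 1.48 and 1.72 without the later scan day), and each group overlapped the controls. INHBA had the highest difference of the ligands in both tissues in all 6 comparisons with control, and the mammary values were 0.61, 0.52 and 0.23. BMP4, which also acts through the BMP receptors, had the lowest difference of the ligands in the liver with B9 (−0.25) and with B12 (−0.26), and was 0.31 with both vitamins (−0.03 without the later scan day). Between B9 + B12 and B9 it was 0.56 higher (limma, adjusted p 0.991, unadjusted p 0.0130), and 0.22 without cow 32 of the later scan day. The ligand medians of the liver were 0.09 for B9, 0.02 for B12 and 0.28 for B9 + B12 (0.05, −0.04 and 0.07 without the later scan day).

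Of the receptors and co-receptors, 9 of 13 were found, and their medians in the liver were −0.06, −0.11 and 0.11 in the same order (−0.03, −0.03 and 0.04 without the later scan day). TFR2, a sensor of transferrin-bound iron that acts with the BMP receptors of hepatocytes, ranged from 11.07 to 11.24 in the control livers and from 10.39 to 10.89 in the B12 livers. All B12 livers lay below all control livers, as for 2.55% of all probes in this contrast, and the difference was −0.50. It was −0.21 with B9 (limma, adjusted p 0.906) and −0.29 with B9 + B12 (limma, adjusted p 0.687). The lowest receptor with B9 was ACVR1, a type I receptor, at −0.25 (limma, adjusted p 0.906). It was −0.41 with B12 and −0.29 with both (−0.45 without the later scan day), and the B12 and the B9 + B12 livers lay below all controls, the latter as for 9.84% of all probes. With B9 + B12 the highest was ENG, the endothelial co-receptor endoglin, at 0.44 (limma, adjusted p 0.687), or 0.28 without the later scan day, against −0.02 with B9 and −0.11 with B12. Endothelial markers moved with it, as their median in these livers was 0.36, with 6 of 9 higher and PECAM1 the highest at 0.87 (median 0.13 without the later scan day). Of the stellate and fibroblast markers 6 of 9 were higher, with a median of 0.21 and COL1A2, a collagen, at 1.17. The part of these cells in the ENG value was not tested. Among the mammary receptors, the B12 values ranged from BMPR1B at −0.25 to ACVRL1 at 0.28.

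All 4 signal transducers were found. SMAD9 was the lowest of them in each liver comparison with control. It ranged from 9.21 to 9.60 in the control livers, from 8.56 to 9.19 with B9, from 8.75 to 9.20 with B12 and from 9.01 to 9.38 with B9 + B12. The B9 and the B12 livers lay below all control livers by a narrow gap, and the B9 + B12 livers overlapped them. Groups that do not overlap, with the vitamin lower, were found for 4.14% of all probes with B9 and for 2.55% with B12. The SMAD9 differences were −0.47 with B9 (limma, adjusted p 0.906, unadjusted p 0.0355), −0.37 with B12 (no test) and −0.15 with B9 + B12 (limma, adjusted p 0.821). The mammary differences of SMAD9 were 0.08, 0.11 and 0.21, in the same order.

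Among the inhibitors, 9 of 19 were found. BAMBI, a pseudoreceptor that is itself a BMP target, read 8.57 to 8.92 in the control livers, 8.64 to 8.93 with B12 and 8.44 to 9.70 with B9, and 9.39 and 9.70 with B9 + B12. Both B9 + B12 livers lay above all controls, as for 12% of all probes. The difference was 0.85 (standard error 0.29, 0.64 without the later scan day), which did not pass the threshold (limma, adjusted p 0.688, unadjusted p 0.0158). With B9 alone it was 0.33 and with B12 alone 0.11 (0.28 and 0.03 without the later scan day). FSTL1 was the lowest inhibitor in the B12 (−0.34) and the B9 + B12 livers (−0.49), and TWSG1 in the B9 livers (−0.17).

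Of the other target genes, 11 of 12 were found, with liver medians of 0.14, 0.00 and 0.18 for B9, B12 and B9 + B12 (0.28, 0.02 and 0.08 without the later scan day). HES1, a repressor shared with the Notch pathway, was 0.99 higher with B9 + B12 (limma, adjusted p 0.688, 0.98 without the later scan day), 0.56 with B9 and 0.22 with B12, and its control livers were spread from 6.96 to 8.30. DLX3 was the highest with B9 (0.57, and 0.65 with both vitamins) and GATA3 the highest with B12 (0.30, and 0.73 with both). Without the later scan day, GATA3 was 0.50 with B12 and 0.49 with both. Mammary GATA2 with B12 ranged from 7.60 to 7.90 against 7.17 to 7.57 in the control glands. These 4 glands lay above all controls, as for 2.27% of all probes, with a difference of 0.31 (limma, adjusted p 0.9997, unadjusted p 0.0455). Of the 11 targets, MSX1 (0.25) was also above and TNFRSF11B (−0.09), not well above background on any mammary array, below all controls there, as for 1.61% of all probes. The 3 E proteins, TCF3, TCF4 and TCF12, with which ID proteins pair, differed by −0.14 to 0.13 in the liver with B9, by 0.00 to 0.12 with B12 and by −0.16 to 0.35 with B9 + B12.

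The iron genes, of which 10 of 15 were found, had liver medians of 0.04, −0.03 and −0.08, with HAMP the highest in each comparison with control. NCOA4, the cargo receptor for the breakdown of ferritin, was the lowest in each, at −0.43, −0.25 and −0.62 (−0.25 with both vitamins without the later scan day). TF, the plasma iron carrier, had mammary differences of 0.85 with B9, −0.38 with B12 and 1.02 with both. TF is also a hepatocyte marker, and the 7 hepatocyte markers were all higher in the glands given B9 (median 0.63) or both vitamins (median 0.41), with none called. This rested on 1 gland in each group. Without cow 57 of the B9 treatment the median was −0.10 with 3 of 7 higher, and without cow 31 of the B9 + B12 treatment it was 0.16 with 5 of 7 higher.

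The mammary lists of the BMP pathway had medians between −0.03 and 0.09 over the 6 lists without the iron genes. With B12, 8 of 9 receptors were above 0 with a median of 0.07, and ACVRL1, a receptor of endothelial cells, was the highest, but with scaling by the 75th percentile, which moved the median of all probes by −0.12, 3 of 9 were above 0. All 4 signal transducers were above 0 with B12, from 0.01 for SMAD1 to 0.11 for SMAD9, but 3 of these 4 signs turned with scaling by the 75th percentile. Among the mammary inhibitors FKBP1A, which holds type I receptors inactive, was the highest with B9 (0.35) and B12 (0.22), and FST was the lowest with B9 (−0.27) and B9 + B12 (−0.16).

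Between the B9 + B12 and the B9 livers, the highest gene of each list was INHBA among the ligands (0.60), ENG among the receptors (0.46, limma, adjusted p 0.998, unadjusted p 0.0393), SMAD4 among the transducers (0.47), BAMBI among the inhibitors (0.52), GATA3 among the other targets (0.53) and HAMP among the iron genes (0.54). Without cow 32 of the later scan day, these differences were 1.09 for INHBA, 0.23 for ENG, 0.44 for SMAD4, 0.36 for BAMBI and 0.12 for GATA3. Endothelial and stellate and fibroblast markers were higher for 8 of 9 genes each, with medians of 0.30 and 0.34. Acute phase genes were lower for 8 of 9, with a median of −0.45 and HP the lowest at −1.78, and the median was −0.31 without cow 32. The part of these lists in the values was not tested. All 4 transducers were above 0, from 0.11 for SMAD5. HMOX1, which breaks down heme, was the lowest iron gene, at −0.71. None of these genes was called, and as in all comparisons of 2 with 3 arrays, the spread of the B9 + B12 group rests on 2 cows.

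**Figure D4:**
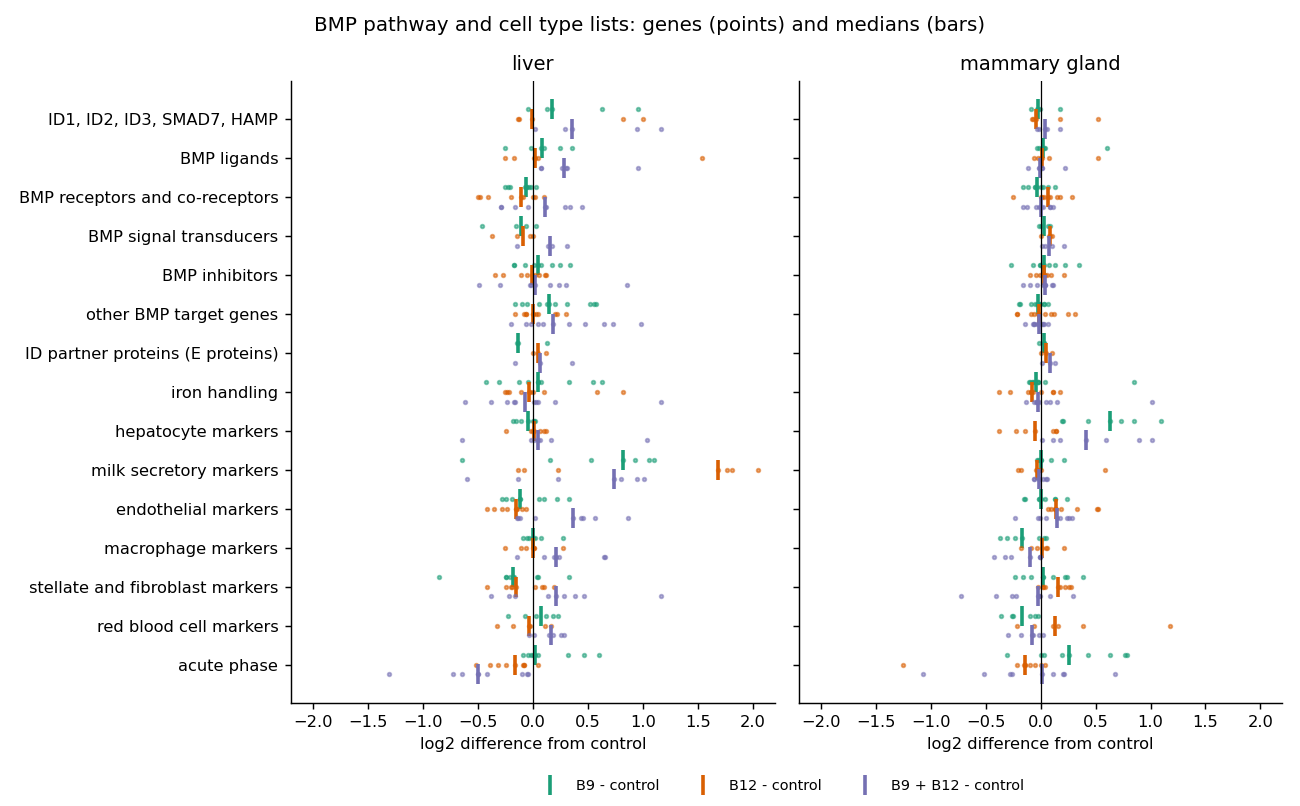
Log2 difference from control (horizontal axis) of the genes of each list, with 1 point per gene and a bar at the list's median, for B9, B12 and B9 + B12 in the liver (left) and the mammary gland (right). The medians of the BMP lists lay between −0.14 and 0.28 in the liver, and the widest shifts were those of the milk secretion markers in the liver, with medians of 0.82, 1.68 and 0.74.

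Between tissues, several genes of the pathway were called. Higher in the liver were TFR2 (4.00, well above background on 3 of 13 mammary arrays), ATOH8 (2.29), BAMBI (1.90), SMAD9 (1.54) and BMPER (1.29, well above background on 6 of 13 mammary arrays). ATOH8 is a BMP target of hepatocytes and BMPER binds BMPs outside the cell. BMP4 was 0.98 higher by its brightest probe and passed the threshold by another probe. GATA3 (−6.26), a transcription factor of the luminal cells of the gland, TCF4 (−2.07), FST (−2.01), which binds activin, and BMPR1B (−1.995) were lower in the liver. These 10 directions were the same under each scaling tried. ENG (−1.01), FKBP1A (−1.37), MSX2 (−1.73) and NCOA4 (−1.65) were also called lower, but were 0.72, 0.31, 0.15 and 0.17 higher in the liver when each tissue was normalized on its own. Of the 10 iron genes, 7 were called higher in the liver, namely TF, HAMP, FTL (3.08), HMOX1 (3.01), SLC39A14 (2.90), SLC40A1 (2.52) and FTH1 (2.11), which serve the transport, storage, uptake and export of iron and the breakdown of heme. SLC11A2, an iron importer, was called lower, and this too turned with the normalization.

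Cell type markers moved with some of these values. With B12, all 9 endothelial markers found were higher in the mammary gland than in the control glands, with a median of 0.14, PLVAP the highest at 0.52 and none called, and with scaling by the 75th percentile 8 of 9 were. Their summed level, on the log2 scale, was 12.59 to 13.03 with B12 and 12.16 to 12.60 in the control glands. After removal of the group means, the mean log2 value of these markers had a correlation of 0.740 with ID1 over the 13 mammary arrays, which share their labelling and scale. In the liver with B12 the same 9 markers were all lower, with a summed level of 13.35 to 13.50 against 13.56 to 13.78, while ID1 was higher. By the mean log2 value of the list, the B12 livers (9.30 to 9.52) overlapped the controls (9.49 to 9.72). The correlation of that mean with ID1 over the 12 liver arrays was 0.13. Stellate and fibroblast markers were also higher in the B12 glands, 8 of 9 with a median of 0.16, and their correlation with ID1 was 0.490. Cow 36, the B12 gland with the highest ID1, stood apart in its red blood cell markers, with a summed level of 14.72 against at most 12.87 on the other mammary arrays, and the correlation of that list with ID1 was 0.510. Without cow 36, mammary ID1 was 0.37 higher with B12 than in the controls, the endothelial markers were still higher for 9 of 9 genes with a median of 0.11, and the correlations with ID1 were 0.705 for endothelial, 0.732 for stellate and fibroblast and 0.258 for red blood cell markers. Lists other than cell types had correlations of like size with mammary ID1. They were 0.575 for the BMP receptors, 0.557 for the other BMP targets and −0.543 for the iron genes (0.48, 0.45 and −0.50 without cow 36). No endothelial marker was at background in either tissue. The part of the cell types in the ID1 values was not tested.

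**Figure D5:**
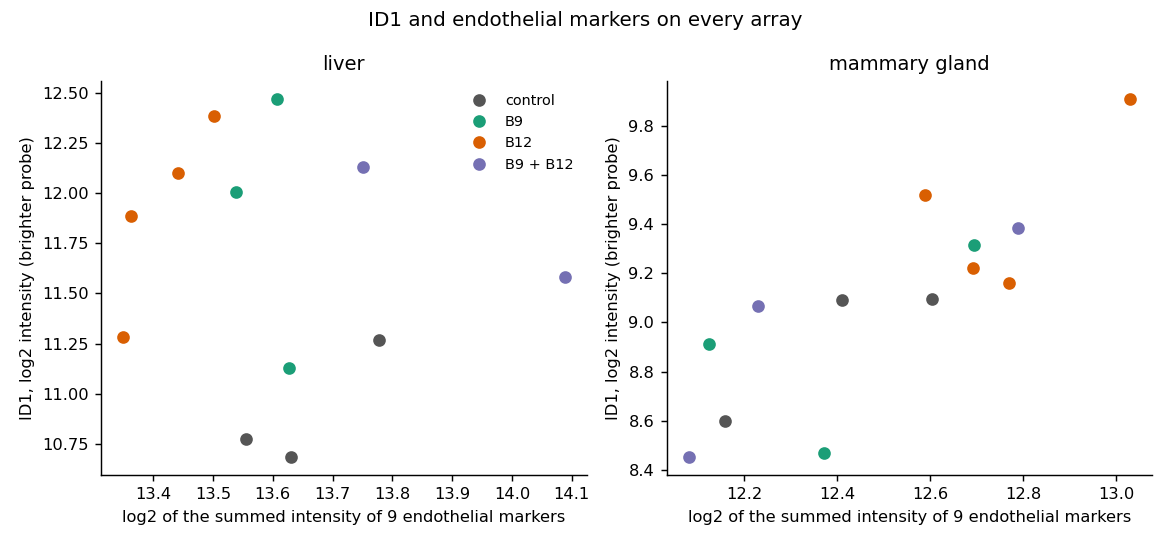
Log2 intensity of ID1 by its brighter probe (vertical axis) against the log2 of the summed intensity of the 9 endothelial markers (horizontal axis), 1 point per array and 1 colour per treatment, for the liver (left) and the mammary gland (right). The mammary B12 arrays lay at 12.59 to 13.03 on the horizontal axis with the highest ID1 at the right end, and the liver B12 arrays lay at its low end, at 13.35 to 13.50.

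Other lists also moved with the liver treatments. Milk secretion markers had medians of 0.82 for B9, 1.68 for B12 and 0.74 for B9 + B12, with none called in the 2 comparisons that were tested. They did not move as a whole, as 6 of 7 were higher with B9 and 5 of 7 with B12 and with both vitamins. XDH was the lowest in each, at −0.64, −0.13 and −0.60. The level differed between cows of a treatment. The mean log2 value of the list was 9.06 to 9.07 in the control livers, 9.11, 9.38 and 10.40 with B9, 8.67, 9.83, 10.87 and 11.07 with B12, and 9.38 and 9.61 with B9 + B12, so that B12 cow 52 lay below the controls. The correlation of this mean with ID1 was 0.284. The summed level, on the log2 scale, was 15.78 to 16.05 in the control livers and 15.36 to 16.18 with B12. It was 15.05 to 15.68 with B9 and 15.23 to 15.44 with both vitamins, so that by this measure these 2 treatments read lower than the controls. Of the acute phase genes, which like HAMP respond to inflammation, all 9 found were lower with B9 + B12 than in the control livers (median −0.50, with HP, haptoglobin, at −1.31), with none called, and 8 of 9 were, with a median of −0.22, without the later scan day. Their summed level was 20.84 to 20.96 against 21.14 to 21.33, and the mean log2 value of the list had a correlation of 0.511 with ID1 and −0.335 with HAMP. With scaling by the 75th percentile, 6 of the 9 were lower. In the main normalization the treatments differed, as 8 of 9 were lower with B12 alone (median −0.16, no test) and 6 of 9 were higher with B9 alone (median 0.02). The part of these lists in the values of ID1 and HAMP was not tested.

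The single genes whose level followed ID1 most closely from array to array were other than the BMP targets. After removal of the group means, and among 8936 genes well above background on all liver arrays, the highest correlations with ID1 over the 12 arrays were those of SEC61B (0.951), NUP37 (0.909), SSR3 (0.902), ZNF286A (0.898) and TRIM38 (0.897). SEC61B and SSR3 belong to the machinery that moves new proteins into the endoplasmic reticulum, and NUP37 to the nuclear pore. ID2 stood at rank 477 with 0.512 and HAMP at rank 7730. Among 8472 genes over the 13 mammary arrays, the closest were TXN (0.981), CPSF3 (0.975), SLC16A7 (0.935), NAP1L5 (0.930) and HS3ST1 (0.926), with ID2 at rank 1193. The 2 lists of 5 shared no gene. The liver and the mammary gland of the same cow had a correlation of 0.159 for ID1 over 12 cows, again after removal of the group means.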

How the data were processed

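RNA of liver and mammary biopsies was measured on 25 one-colour Agilent bovine arrays. The authors deposited scanner output of Agilent Feature Extraction (version 9.1 in the submitters' processing notes, but a later version in the file headers and the study's methods), which gives an intensity and a local background for each spot without any scaling of the arrays, and a table of log2 values to which normexp and between-array normalization had been applied. The members and the gene lists were chosen with earlier results of these data known.

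From the median intensity, background was corrected by normexp (offset 50) and arrays were normalized by quantiles within each tissue, or over both tissues where tissues were compared. Outlier spots were dropped. The 43803 spots other than controls held 43653 probes, 53.9% of them with a current symbol (matched through RefSeq, ARS-UCD2.0 assembly, names only, since the array follows another build). Each gene is described by its brightest probe in the tissue. Differences were tested by limma 3.58.1 (R 4.3.3) over all probes with Benjamini-Hochberg adjustment in 1 fit per tissue, and single values by exact permutation tests. P-values measure the spread between these cows. Genes of the other lists are named where called, and otherwise where highest or lowest of their list in a comparison, and so are the 5 genes most like ID1 in each tissue. The other mammary extremes and those of the cell type lists are given as medians and counts.

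Alternatives were the processed signal with 75th percentile scaling, that scaling in place of quantiles, an offset of 0 or no correction for background, quantiles taken over the other set of arrays, dim probes removed (34481 liver and 31529 mammary probes remained), outliers retained, slides as blocks (fixed, or random with a correlation from a subset of probes), Cyber-T (window 101, confidence 10), fits restricted to the groups compared, the deposited log2 values, a gene's mean over its probes, and the omission of single arrays. The scan day as a term, the omission of its 3 arrays, and the omission of single mammary arrays from marker lists were added after the data were seen. Cow numbers in the titles pair the tissues of 12 cows, being the same animal. Deviations of the 2 tissues from their group means correlated between −0.246 and 0.259 (median 0.0375), above 0.1 in 4 of 12 cows, and the cow was a random block in an alternative. In simulated data, 200 probes changed by 1.5 to 4 on the log2 scale were found at 95.0% to 100% by limma over 10 comparisons, with at most 8 unchanged probes called, and at 99.5% to 100% by Cyber-T over 8, with up to 123.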

Additional observations from a re-analysis of the deposited data

Results flagged for a closer look

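The dimmer probe of ID2 had 1 array far from the others of its group. In the liver with B12, cow 40 read 9.27, and the other 3 cows of that group read between 10.32 and 10.48. The gap to the nearest array was 0.867 of the range of the group, above Dixon's 95% critical value for 4 arrays. The brighter probe of ID2 had its lowest liver value in the same cow, at 10.64. The check was run on 14 groups of 4 arrays, and chance marks about 1 in 20 groups.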

How the results depend on the processing

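The number of member genes called was 0 in all 8 comparisons of treatments that were tested, under every alternative and with each array left out (ID1 had no test against control in the liver, where the counts cover the other 4 genes), and 3 between tissues with each array left out. Between tissues it was 2 with the slide as a fixed block, where ID2 was 0.97, and 4 with scaling by the 75th percentile, where SMAD7, mostly not well above background, turned to −1.01 in a shift of all probes by −0.80. With the cow as a block for the pairing, 3 genes were called between tissues, with ID1 at 1.15, ID2 at 1.17 and HAMP at 6.36, and 0 in the contrast of tissues for B12 on top of B9, so that the block changed no call. The tissue difference of ID1 ranged from 1.12 to 2.66 over the alternatives (deposited values highest) and from 1.08 to 1.23 with 1 array left out. For ID1 with B12 against control, the range was 0.860 to 1.12 in the liver (0.846 to 1.21 with 1 array left out) and 0.438 to 0.586 in the mammary gland (0.359 to 0.622). Of 565 recomputed differences of ID1, ID2 and liver HAMP, 31 changed sign, and of 531 of the dim genes 62 did, so that the signs of small values carry no weight. Scaling by the 75th percentile moved the median of all probes to 0.11 (liver B9), −0.08 (liver B12), 0.27 (liver B9 + B12), 0.15 (liver B9 + B12 against B9), −0.21 (mammary B9), −0.12 (mammary B12) and −0.15 (mammary B9 + B12). Cyber-T called 3 to 22 probes in the treatment comparisons that were tested, no tested member among them, with unadjusted p of 0.0381 and 0.00244 for liver HAMP with B9 and B9 + B12 and 0.0107 for mammary ID1 with B12. Leaving out B9 + B12 cow 38 left 1 liver array, assumed to vary like the others, and 72 probes were then called against control, again no tested member. Cyber-T was not run for the contrast of tissues for B12 on top of B9. The number of cows and, for ID3, SMAD7 and mammary HAMP, signals near background limit the values.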
